A study of Mus musculus with 18 samples.

Results

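The 41 genes described here code for proteins of the DNA damage checkpoint and of DNA repair, and were taken from a list by symbol. All 41 were measured in each of 3 deposited tables of RNA sequencing, which together hold 13787 genes. They were grouped by role into 13 checkpoint genes, 8 genes of break sensing and chromatin marking, 8 of homologous recombination, 5 of the Fanconi pathway, 4 of end joining, 2 of single-strand break repair and 1 of mismatch repair.

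The samples came from mouse acute myeloid leukemia (AML) of C57BL/6 strain driven by MLL/ENL and Nras, transplanted into syngeneic mice. CX-5461, a drug against RNA polymerase I, the enzyme that makes ribosomal RNA, or vehicle was given once disease was established, and GFP-positive leukemia cells were sorted from their bone marrow. There were 18 samples in 6 groups of 3: p53WT AML with vehicle or CX-5461 for 10 h, p53null AML with vehicle or CX-5461 for 10 h, and p53WT AML with vehicle or CX-5461 for 72 h. All 6 groups carry MLL/ENL and Nras, and p53null samples were taken at 10 h only. The labels give no age of the mice and do not say how many primary leukemias of each genotype were transplanted, so a genotype may stand for a single leukemia, and the p53 status cannot be told apart from other differences between leukemias. Each comparison below asks how these transcripts differed between CX-5461 and vehicle within 1 genotype and time.

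DNA damage signalling starts at the lesion. The MRN complex, of Mre11a, Rad50 and Nbn, binds broken ends and recruits the kinase Atm, whereas single-stranded DNA coated with replication protein A recruits the kinase Atr through its partner Atrip. Atr is activated by Topbp1 next to the ring-shaped 9-1-1 clamp (Rad9a, Rad1 and Hus1), and the signal passes through Clspn to the kinase Chek1, while Atm acts through Chek2. Atm and Atr phosphorylate the histone variant H2AX, the product of H2afx, around the break, and act on p53, whose target Cdkn1a codes for a cell cycle inhibitor. Much of this control acts on the proteins, by phosphorylation and ubiquitylation, and is not read by RNA sequencing.

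Counts per library were at hand for p53WT AML at 10 h, whose 6 libraries held 21578685 to 48118513 counts in genes. For the other comparisons the authors' deposited tables give a log2 fold change, a mean level in CPM (counts scaled to the library total) and a false discovery rate (FDR), with no value per library, so no spread can be shown. In p53WT AML at 10 h, Cdkn1a was 51.8 ± 3.33 CPM with vehicle and 247 ± 15.0 CPM with CX-5461 (mean ± SD, n = 3 each; adjusted p = 8.19e-05, edgeR quasi-likelihood test). Its log2 fold change in the authors' deposited tables was -0.03 in p53null AML at 10 h (FDR 1) and 1.70 in p53WT AML at 72 h (FDR 1.44e-32). The mean level of Trp53 itself was 169 CPM and 163 CPM in p53WT AML (10 and 72 h) and 61.5 CPM in p53null AML, in the authors' deposited tables, which were normalized separately. The allele behind p53null is not given in the labels. The vehicle libraries at 10 h differed from each other more than the CX-5461 libraries did (Pearson r of log2 CPM across genes 0.973 to 0.986 against 0.995 to 0.996). Erythroid and neutrophil transcripts set them apart, as given beside the results.

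In vehicle-treated p53WT AML at 10 h the 41 transcripts spanned a wide range of levels. Per kilobase of exon, H2afx stood highest with 150 CPM per kb. It was followed by Usp1, the deubiquitinase that removes ubiquitin from the products of Fancd2 and Fanci, with 64.4 CPM per kb, and by Tipin, a part of the fork protection complex, with 61.0 CPM per kb. At the other end lay Xrcc5 with 1.71 CPM per kb, Rad52 with 1.83, Lig4 with 1.99 and Atr with 2.06. Xrcc5 and Xrcc6 code for the Ku80 and Ku70 subunits of the Ku ring that holds broken ends, and the level of Xrcc6 was 16.4 CPM per kb. The lowest raw count of any of the 41 genes in any library was 60, for Xrcc5. Xrcc5 shares no exon base with another gene in GENCODE M21, and the reason for its low count was not tested.

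**Figure D1:**
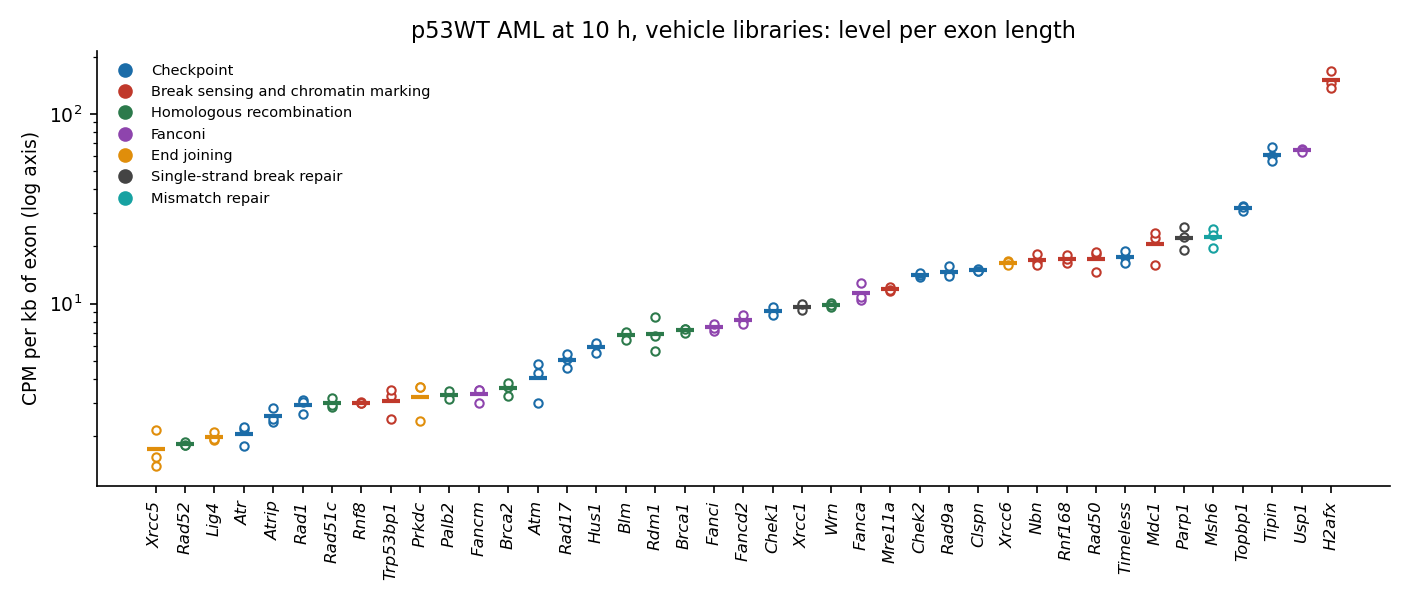
Level of each of the 41 genes in vehicle-treated p53WT AML at 10 h, as TMM-scaled CPM divided by exon length in kb, on a log axis, coloured by role. H2afx is highest at 150 CPM per kb and Xrcc5 lowest at 1.71 CPM per kb.

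After 10 h of CX-5461, the checkpoint and repair transcripts of p53WT AML stayed close to their vehicle level. Atr, the kinase of the replication stress checkpoint, rose 1.31-fold and was the single gene of the 41 to pass an adjusted p of 0.05. None fell. Over all 12679 genes of the table, 3.78% rose and 4.32% fell by the same edgeR test. By the p before adjustment, 10 of the 41 genes were higher at 0.05, against 14.7% of all genes, and 2 were lower, against 16.7% of all genes. With other tools the counts of higher and lower genes among the 41 were 0 and 0 in the authors' deposited table (3.57% and 6.83% of all genes), 0 and 0 with limma-voom (3.11% and 2.60%), 1 and 0 with edgeR's exact test (5.49% and 8.04%), and 2 and 2 with DESeq2 (7.57% and 10.6%). DESeq2 called Atr and Atrip higher and H2afx and Rdm1 lower. The median log2 fold change of the 41 was 0.08, beside 0.00 for all genes, with 29 positive and 12 negative values between -0.48 and 0.38.

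Among the checkpoint genes, Atr (ENSMUSG00000032409) had 51.6, 41.9 and 52.8 CPM in the vehicle libraries and 64.8, 63.1 and 63.1 CPM in the CX-5461 libraries. Every CX-5461 library was thus above every vehicle library. The log2 fold change was 0.38 (SE 0.0902, 95% confidence interval 0.17 to 0.60), with an adjusted p of 0.0483 in edgeR's quasi-likelihood test. The call sits at the threshold. It was lost without any one of the 3 CX-5461 libraries (log2 fold change 0.37 to 0.39, edgeR adjusted p 0.139 to 0.188), when 23 to 25 genes were called in the whole table in place of 1027. Further, in the authors' deposited table the FDR of Atr was 0.0595.

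Atrip, the partner that brings Atr to single-stranded DNA, had 20.3, 16.97 and 17.6 CPM with vehicle and 22.1, 22.7 and 23.2 CPM with CX-5461. Its libraries did not overlap either, and its log2 fold change was 0.31 (SE 0.0864, edgeR adjusted p = 0.0672). Atm, the kinase of double-strand breaks, had 44.7, 30.9 and 49.5 CPM with vehicle and 52.8, 50.4 and 56.8 CPM with CX-5461, a log2 fold change of 0.35 (SE 0.162, edgeR adjusted p = 0.184). The second vehicle library was far below the other vehicle libraries for Atm, and its SE was the largest of the 13 checkpoint genes. Hus1, a subunit of the 9-1-1 clamp, had a log2 fold change of 0.20 (edgeR adjusted p = 0.0811), and Clspn, the adaptor for Chek1, one of 0.12 (edgeR adjusted p = 0.151).

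For the effector kinases the intervals reached both sides of 0. Chek1 had 42.1, 40.5 and 44.4 CPM with vehicle and 45.0, 40.9 and 40.2 CPM with CX-5461. The libraries of the groups overlapped, and the interval of the log2 fold change ran from -0.16 to 0.15. For Chek2 the vehicle values were 41.5, 42.3 and 43.4 CPM and the CX-5461 values 44.9, 43.0 and 40.6 CPM, with an interval from -0.12 to 0.15. The fork protection pair Timeless and Tipin had log2 fold changes of -0.04 and 0.01. Of the 13 checkpoint genes, 10 had positive values, 5 had every CX-5461 library above every vehicle library, and none had the reverse. Over all genes, 19.9% had every CX-5461 library above and 19.1% had every one below. The median of the checkpoint genes was 0.08.

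Among the genes of break sensing and chromatin marking, H2afx (ENSMUSG00000049932) went the other way. It had 201, 234 and 188 CPM with vehicle and 172, 170 and 182 CPM with CX-5461. All CX-5461 libraries were below all vehicle libraries, with a log2 fold change of -0.25 (SE 0.0836, edgeR adjusted p = 0.0948). In the MRN complex, Rad50 had 97.6, 79.0 and 100.02 CPM with vehicle and 110, 108 and 110 CPM with CX-5461, which did not overlap and gave a log2 fold change of 0.25 (edgeR adjusted p = 0.115). Mre11a and Nbn had values of 0.10 and 0.07. Mdc1, the scaffold that binds phosphorylated H2AX, had 165, 118 and 174 CPM with vehicle and 170, 166 and 172 CPM with CX-5461. Its log2 fold change of 0.15 came with the low second vehicle library. Trp53bp1, whose product 53BP1 shields broken ends from resection, showed the same low library, with 46.2, 35.0 and 49.5 CPM against 45.8, 46.5 and 44.7 CPM and a log2 fold change of 0.07. The ubiquitin ligases Rnf8 and Rnf168, which mark chromatin next to breaks, had values of -0.04 and 0.08.

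Homologous recombination was the only role with more negative than positive values, 5 against 3, and a median below 0 (-0.05). Brca1 had 62.8, 59.7 and 62.5 CPM with vehicle and 60.7, 59.9 and 59.9 CPM with CX-5461, a log2 fold change of -0.03. Brca2, a mediator of strand exchange, had 49.6, 44.7 and 52.0 CPM against 58.2, 54.1 and 53.1 CPM, without overlap (log2 fold change 0.18, edgeR adjusted p = 0.146). Palb2, the bridge between the Brca1 and Brca2 proteins, had a value of 0.17. The lowest value of all 41 genes was that of Rdm1 (ENSMUSG00000010362), which codes for a protein with an RNA recognition motif related to Rad52. Rdm1 had 10.6, 13.3 and 8.82 CPM with vehicle and 7.62, 7.62 and 8.26 CPM with CX-5461, a log2 fold change of -0.48 (SE 0.156, edgeR adjusted p = 0.0905). Rad51c, which acts in strand exchange, had 12.6, 12.7 and 13.9 CPM against 11.2, 12.1 and 10.8 CPM (log2 fold change -0.20, edgeR adjusted p = 0.170). The helicase gene Wrn also had every CX-5461 library below every vehicle library, with a value of -0.12, while its relative Blm had every one above, with 0.10.

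All 5 Fanconi genes had positive values, with a median of 0.09. Fanca, of the core complex, had 91.9, 94.5 and 112 CPM with vehicle and 121, 113 and 121 CPM with CX-5461 (log2 fold change 0.25, SE 0.0829, edgeR adjusted p = 0.0939). Fancd2 and Fanci, the pair that the core complex ubiquitylates at a crosslink, had values of 0.09 and 0.06. In end joining, Prkdc, the catalytic subunit of DNA-PK, had 48.3, 31.8 and 48.2 CPM with vehicle and 51.4, 51.2 and 56.4 CPM with CX-5461 (log2 fold change 0.31, SE 0.157, edgeR adjusted p = 0.225). The second vehicle library was again the low one. Xrcc5 (ENSMUSG00000026187) had 3.56, 5.54 and 3.98 CPM against 3.59, 3.53 and 2.55 CPM (log2 fold change -0.43, SE 0.218, edgeR adjusted p = 0.230), with overlapping groups. Xrcc6 had a value of 0.11, and Lig4, the ligase of this pathway, one of -0.03.

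Parp1, the sensor of single-strand breaks, had 133, 102 and 118 CPM with vehicle and 143, 133 and 140 CPM with CX-5461. The lowest CX-5461 library lay level with the highest vehicle library, and the log2 fold change was 0.23 (SE 0.0960, edgeR adjusted p = 0.151). Xrcc1, the scaffold of the same pathway, had a value of 0.09. Msh6, which recognises mismatched bases, had 108, 85.4 and 100.3 CPM with vehicle and 120, 116 and 110 CPM with CX-5461, without overlap (log2 fold change 0.24, edgeR adjusted p = 0.122).

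**Figure D2:**
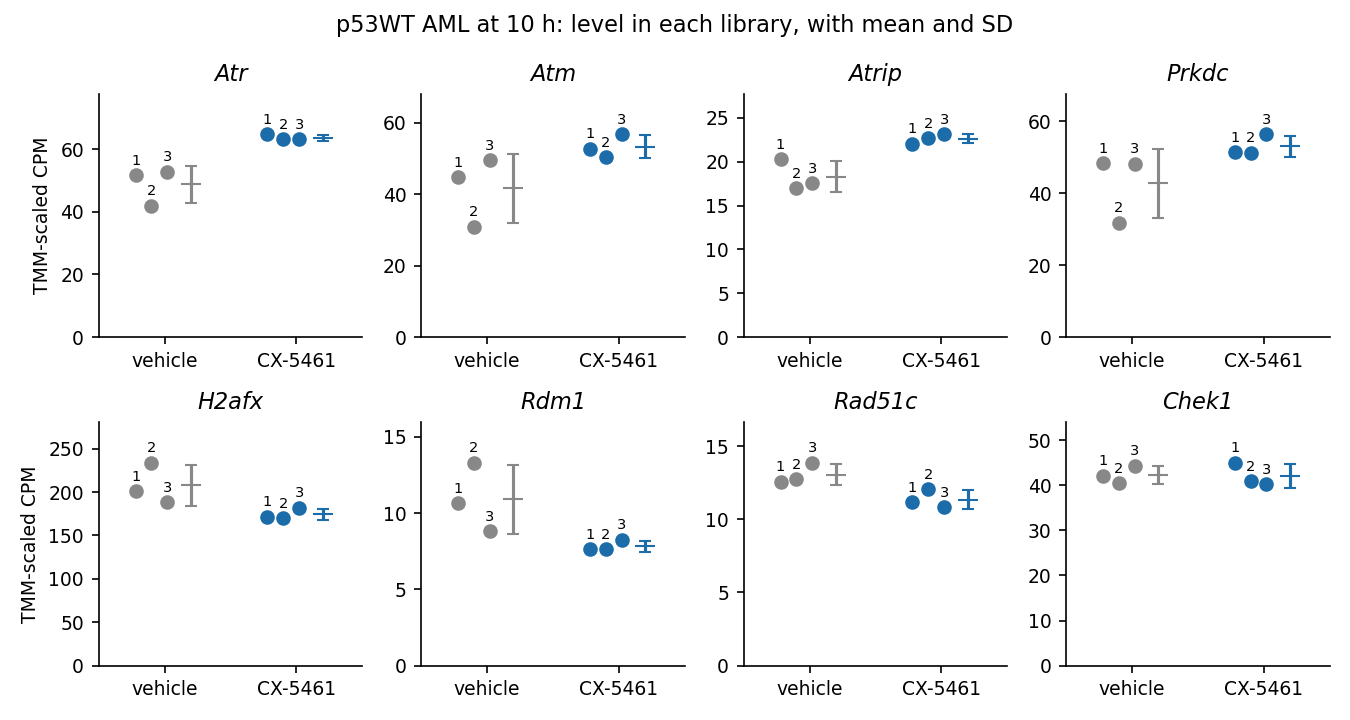
TMM-scaled CPM of 8 of the genes in each library of p53WT AML at 10 h, with the library number above each point and the mean ± SD of 3 libraries beside the points. The CX-5461 libraries of Atr sit between 63.1 and 64.8 CPM, above all vehicle libraries, and the second vehicle library is the lowest for Atr, Atm, Atrip and Prkdc and the highest for H2afx and Rdm1.

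Counted over the 41 genes, 14 had every CX-5461 library above every vehicle library and 4 (H2afx, Rad51c, Rdm1 and Wrn) had every one below, while 23 overlapped. Against the 19.9% and 19.1% of all genes given above, these are 34.1% and 9.76% of the 41. The second vehicle library was the lowest of the 6 libraries for 21 of the 41 genes, beside 31.3% of all genes. It was also the library with the most erythroid and neutrophil transcripts. The summed level of the 11 measured of 14 erythroid markers was 780 to 19686 CPM over the vehicle libraries and 471 to 684 CPM over the CX-5461 libraries, with Gata1, Epor and Ahsp not in the table. By edgeR's quasi-likelihood test 5 of these 11 markers fell with CX-5461. The 11 neutrophil markers summed to 7008 to 18982 CPM with vehicle and 2829 to 3960 CPM with CX-5461, and 8 of the 11 fell. Set against the mean of the CX-5461 libraries, the median log2 level of the 41 genes was -0.06, -0.10 and -0.03 in the 3 vehicle libraries, that of the erythroid markers 4.20, 5.95 and 0.92, and that of 30 proliferation genes 0.06, 0.00 and -0.02. Differences in the share of other cells and in RNA per cell cannot be told apart in sorted bulk samples. With the mean erythroid marker level as a covariate, the median of the 41 genes was -0.01 and Atr had a log2 fold change of 0.13 (edgeR adjusted p = 0.667). Under this fit 24 genes of the whole table were called, and the marker level itself separates the groups. Without the second vehicle library, Atr had a log2 fold change of 0.29 (edgeR adjusted p = 0.0180) and the median was 0.05.

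**Figure D3:**
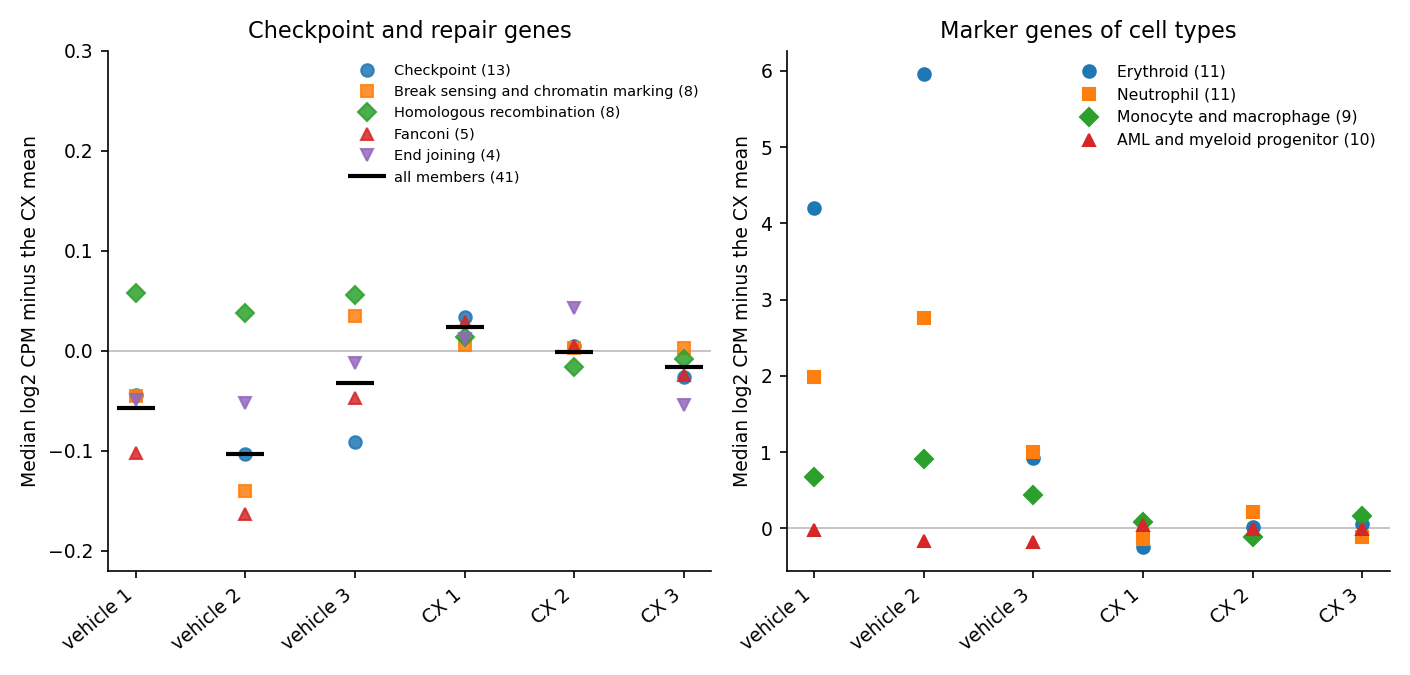
Median log2 CPM of the larger roles and of all 41 genes (left), and of marker lists (right), in the 6 libraries of p53WT AML at 10 h. Values are relative to the mean of the CX-5461 libraries. Single-strand break repair (2 genes) and mismatch repair (1 gene) are not drawn. In the second vehicle library their medians were -0.29 and -0.43. The 41 genes together lie between -0.10 and 0.02 in all libraries, whereas erythroid markers reach 5.95 in the second vehicle library.

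The length of the transcript went along with these values. Across the 41 genes the log2 fold change at 10 h had a Spearman correlation of 0.42 with exon length, which was 0.29 without the second vehicle library. Across 12242 genes of the table the same correlation was 0.05, and -0.02 without that library. For the 41 genes in p53null AML at 10 h it was -0.41, beside -0.03 across 11506 genes. In p53WT AML at 72 h it was 0.24 for the 41 genes and 0.12 across 11889 genes. The level in the second vehicle library of p53WT AML at 10 h was also taken relative to the other vehicle libraries. Its correlation with length was -0.45 across the 41 genes and -0.19 across all genes. The points of p53WT AML at 10 h share the same 6 libraries. Atr, Atm, Prkdc and Brca2 are among the long transcripts, with 23.6, 10.3, 13.2 and 13.6 kb of exon, and H2afx and Rdm1 among the short ones, with 1.38 and 1.57 kb. The part of length in the fold changes was not tested.

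In p53null AML after 10 h of CX-5461, 1 of the 41 genes passed the authors' FDR of 0.05. Rdm1 rose, with a log2 fold change of 0.50 and an FDR of 0.0305 at a mean of 14.7 CPM in the authors' deposited table. None fell. Of all 12861 genes, 0.148% rose and 0.0389% fell by the same FDR. At an unadjusted p under 0.05, 2 of the 41 genes were higher and 1 lower, beside 3.15% and 2.92% of all genes. The median log2 fold change of the 41 was 0.01, with 21 positive and 20 negative values.

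The other values in this leukemia were small. In the authors' deposited table, Atr had -0.04, Atm -0.13 (FDR 0.900), Chek1 0.09 and Chek2 0.17 (FDR 0.953). H2afx had 0.15 (FDR 0.692) and Trp53bp1 0.05 in the authors' deposited table. The values of Brca1, Brca2 and Rad51c were -0.02, -0.10 and 0.06, and those of Fancd2 and Fanci 0.12 and 0.12, in the authors' deposited table. For end joining, the authors' deposited table gives 0.17 for Xrcc5, -0.02 for Xrcc6, -0.01 for Prkdc and 0.12 for Lig4. Xrcc1, Parp1 and Msh6 had 0.11, 0.02 and 0.01 in the authors' deposited table. In this comparison none of the 10 AML, 7 erythroid or 11 neutrophil markers measured was called.

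After 72 h of CX-5461 in p53WT AML, 7 of the 41 genes fell and 1 rose by the authors' FDR of 0.05. The 7 were H2afx, Rdm1, the clamp subunit Rad1, the fork protection pair Timeless and Tipin, Fanci and Xrcc1, and the 1 was Xrcc5. They make up 17.1% and 2.44% of the 41, whereas 15.1% of all 12838 genes fell and 16.1% rose. The share that fell was thus near that of all genes and the share that rose was below it. The median log2 fold change of the 41 was -0.11, beside -0.01 for all genes, and 32 of the 41 values were negative. At an unadjusted p under 0.05, 11 were lower and 3 higher, beside 19.6% and 20.3% of all genes.

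Among checkpoint genes, the authors' deposited table gives -0.41 for Rad1 (FDR 0.000522), -0.36 for Timeless (FDR 0.0026) and -0.28 for Tipin (FDR 0.0114). Timeless and Tipin bind each other and travel with the replication fork, and Rad1 is a subunit of the 9-1-1 clamp. The partners of Rad1 in the clamp, Rad9a and Hus1, had 0.07 and -0.07 in the authors' deposited table and were not called. The kinases had -0.11 (Atr), -0.02 (Atm), -0.04 (Chek1) and -0.17 (Chek2) in the authors' deposited table, none of them called. Of the 13 checkpoint genes, 11 had negative values, with a median of -0.14.

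H2afx, which shares 10.2% of its exon bases with Gm44335 in GENCODE M21, had the smallest FDR of the 41 genes. Its log2 fold change was -0.67 in the authors' deposited table (FDR 3.57e-16, mean 148 CPM). The other genes of break sensing and chromatin marking were not called, and in the authors' deposited table Mdc1 came nearest with -0.19 (FDR 0.0652), while Trp53bp1 had 0.10. All 8 genes of homologous recombination had negative values, with a median of -0.16, and 1 of them passed. That was Rdm1, with -0.80 in the authors' deposited table (FDR 1.36e-06, mean 8.41 CPM), the lowest value of the 41. Brca1, Brca2 and Rad51c had -0.04, -0.14 and -0.18 in the authors' deposited table.

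In the Fanconi pathway Fanci fell, with -0.26 (FDR 0.0237) in the authors' deposited table, and its partner Fancd2 had -0.13 (FDR 0.345). Fanci shares 16.0% of its exon bases with Polg in GENCODE M21. In single-strand break repair Xrcc1 fell, with -0.22 (FDR 0.0303) in the authors' deposited table, and Parp1 had -0.23 (FDR 0.0777). End joining had a median of 0.12. There Xrcc5 rose by 0.55 on the log2 scale (FDR 0.00543) at a mean of 3.35 CPM in the authors' deposited table, the lowest level of the 41 genes. Its partner Xrcc6 had -0.20 (FDR 0.0585), Lig4 0.24 (FDR 0.0958) and Prkdc 0.01 in the authors' deposited table. Msh6 had 0.19 (FDR 0.101) in the authors' deposited table.

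**Figure D4:**
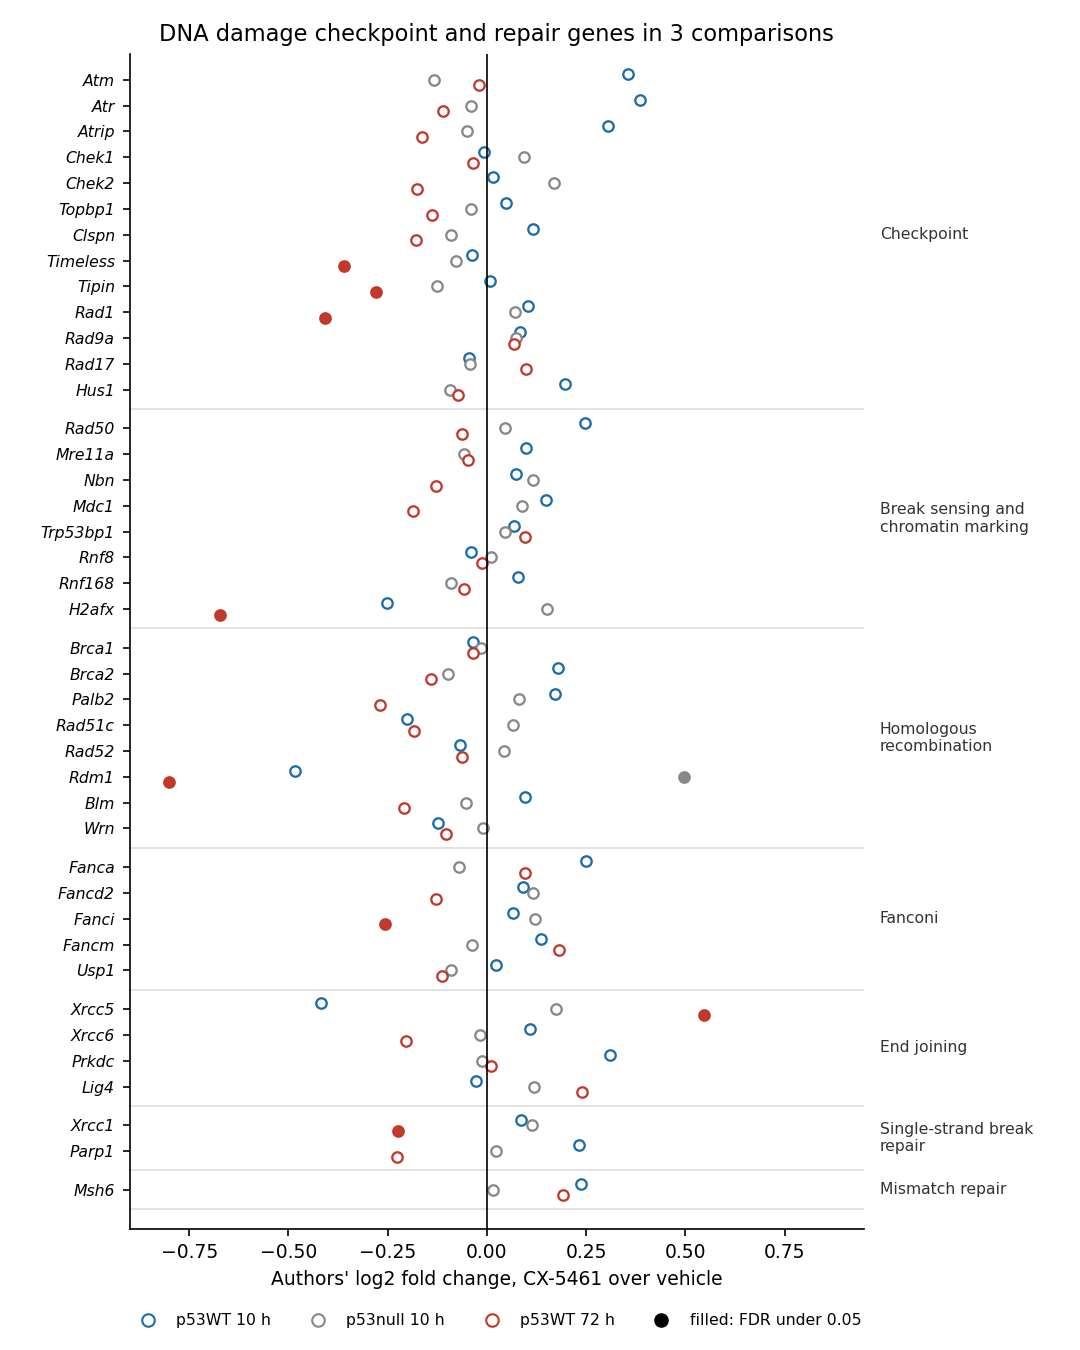
Log2 fold change, CX-5461 over vehicle, of each of the 41 genes in the authors' 3 deposited tables, ordered by role, with filled points for an FDR under 0.05. Filled points are Rdm1 in p53null AML at 10 h (0.50) and 8 genes in p53WT AML at 72 h, 7 of them below 0 and Xrcc5 above 0, with none in p53WT AML at 10 h.

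Other cell markers moved as well at 72 h, those of neutrophils and erythroid cells in the opposite direction to 10 h. By the authors' deposited table, 11 of 11 neutrophil markers were higher with CX-5461 (median log2 fold change 1.25), as were 6 of 12 erythroid markers. Among 10 AML and myeloid progenitor markers 2 were higher and 4 lower, with values from -1.23 to 0.84 and a median of -0.12. The values of Kit and Cd34 were -0.87 and -1.23 in the authors' deposited table, while 4 of the 10 markers had positive values. At 10 h in p53WT AML, 1 of these 10 was lower by edgeR's quasi-likelihood test, and their median was 0.10. Of 30 proliferation genes, 2 were higher and 3 lower by the authors' FDR. These are 6.67% and 10.0%, below the 16.1% and 15.1% of all genes. The part of these shifts in the fall of the 7 genes was not tested, and no value per library was at hand at this time.

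Set side by side, the comparisons share no samples. In the authors' deposited tables, Rdm1 had -0.48 and -0.80 in p53WT AML (10 and 72 h) and 0.50 in p53null AML. In the same order in the authors' deposited tables, H2afx had -0.25, -0.67 and 0.15, and Xrcc5 had -0.42, 0.55 and 0.17. No difference between comparisons was tested, because counts were at hand for 1 of them. Of the 41 genes, 23 had a positive value in p53WT AML at 10 h and a negative one at 72 h. The share of all genes with that order of signs is not given here. The sign was the same at both times for 15 of the 41, or 36.6%, beside 46.0% of all genes shared by those tables. Pearson r of the log2 fold changes was 0.19 across the 41 genes (Spearman 0.08) and -0.34 across all shared genes. Between p53WT and p53null AML at 10 h the sign was the same for 17 of the 41, or 41.5%, beside 47.0% of all genes. There Pearson r was -0.60 across the 41 genes (Spearman -0.39) and -0.05 across all shared genes.

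The level of some genes differed between the tables. Parp1 had a mean of 260 CPM in p53null AML and 128 CPM in p53WT AML at 10 h in the authors' deposited tables. Chek2 had 24.7 and 42.6 CPM, and Nbn 24.1 and 44.0 CPM, in the same order in the authors' deposited tables. These tables were normalized separately, and the differences were not tested.

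The other genes of these pathways were taken from a list of 103 names. Of these, 100 were measured in each p53WT table and 99 in the p53null table, and 2 (Claspin and Uaf1) are other names of Clspn and Wdr48. In p53WT AML at 10 h, 6 of 100 rose and none fell by edgeR's quasi-likelihood test, beside 3.78% and 4.32% of all genes. Before adjustment 27 were higher and 9 lower at 0.05, beside 14.7% and 16.7% of all genes. Further, 7 rose and 2 fell by the FDR of the authors' deposited table, beside 3.57% and 6.83% of all genes. The 6 were Sesn2, Aen, Polk, Ercc5, Mdm4 and Mgmt. Sesn2, which codes for a stress-induced regulator of growth signalling, went from 12.3 ± 3.35 to 41.9 ± 2.33 CPM (mean ± SD, n = 3 each; edgeR adjusted p = 0.0113). Aen, an apoptosis-associated nuclease gene, went from 64.0 ± 1.46 to 124 ± 2.70 CPM (edgeR adjusted p = 0.000208, n = 3 each), and Polk, a translesion polymerase gene, from 14.4 ± 0.546 to 26.8 ± 1.19 CPM (edgeR adjusted p = 0.00288, n = 3 each). Sesn2, Aen, Polk and Mdm4 are known p53 targets or regulators, and were listed as such. Other p53 targets of the list did not pass the edgeR test and went both ways. Log2 fold changes were negative for Gadd45a (-1.19), Sesn1 (-0.27), Rrm2b (-0.16), Ddb2 (-0.12) and Xpc (-0.06). They were positive for Ppm1d (0.25, edgeR adjusted p = 0.0891) and Polh (0.01). The 2 that fell by the FDR of the authors' deposited table were Gadd45a and Cdc25b, both highest in the second vehicle library. In p53null AML, Sesn2, Aen and Polk had -0.22, -0.11 and -0.17 in the authors' deposited table and were not called. There 1 of 99 other repair genes rose (Cdc25b, 0.44) and 1 fell (Ung, -0.43) in the authors' deposited table. Of all genes, 0.148% rose and 0.0389% fell by the same FDR.

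At 72 h in p53WT AML, 26 of the 100 other repair genes fell and 6 rose by the authors' FDR, with a median log2 fold change of -0.08. As given above, 15.1% of all genes fell and 16.1% rose, and the counts by pathway below are to be read against these shares. The 6 that rose were Sesn2, Aen, Slx4, Sfr1, Paxx and Polk. The mismatch repair genes Msh3, Mlh3, Pms1 and Pms2 fell, with -0.24, -0.44, -0.29 and -0.29 in the authors' deposited table. Msh6 had 0.19 as given above and was not called. Of 11 other Fanconi genes, 7 fell, with a median of -0.26 over the 11. Among them were Fancf, of the core complex, with -0.52, and Wdr48, the cofactor of Usp1, with -0.24, in the authors' deposited table. Of 14 base excision genes 5 fell, among them Ung, the uracil glycosylase, with -0.51 (FDR 3.08e-07) in the authors' deposited table. In homologous recombination 4 of 28 fell and 2 rose, with Rmi2, a subunit of the complex around Blm, at -0.58 (FDR 2.5e-08) in the authors' deposited table. End joining had 2 of 9 lower and 1 higher, and nucleotide excision 1 of 13 lower.

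**Figure D5:**
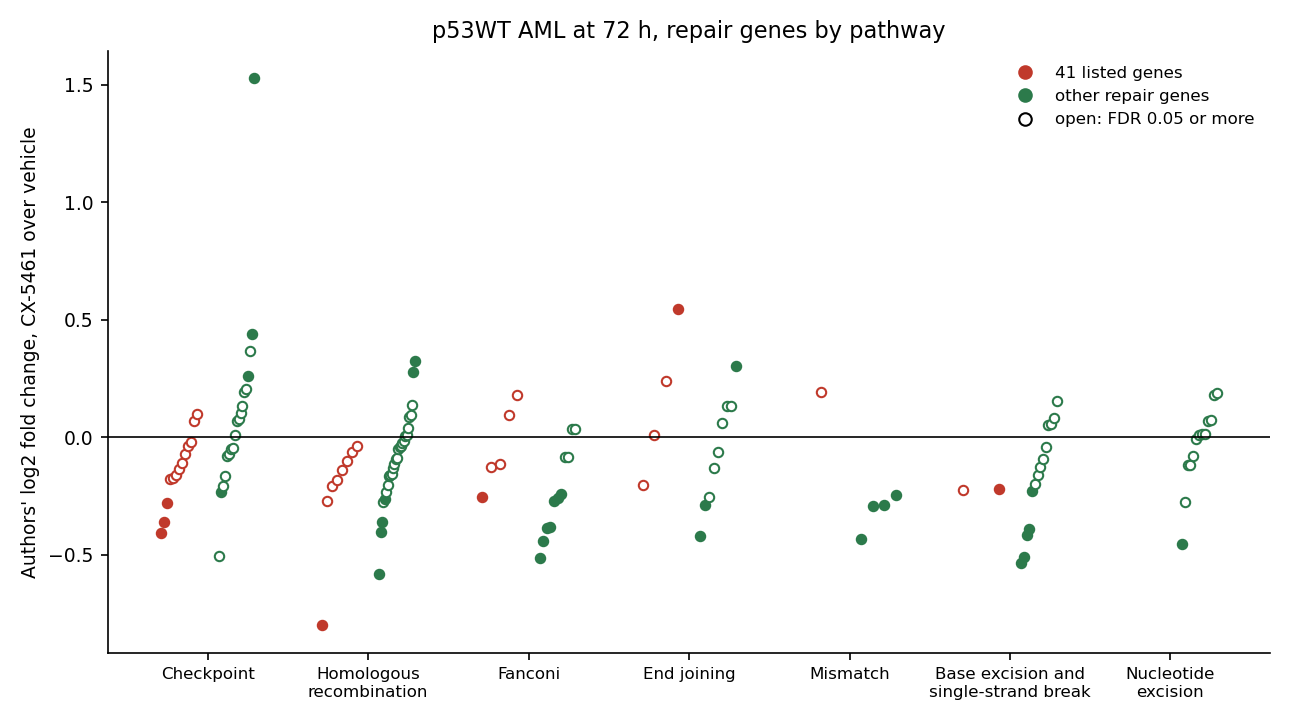
Log2 fold change in p53WT AML at 72 h, from the authors' deposited table, of listed genes (red) and other repair genes (green) by pathway. Open points mark an FDR of 0.05 or more. The 8 genes of break sensing and chromatin marking, H2afx among them, belong to the 41 but are not drawn. The mismatch repair genes Msh3, Mlh3, Pms1 and Pms2 lie between -0.44 and -0.24, while Msh6 lies at 0.19.

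Promoter sequence was at hand from RefSeq for 31 of the 41 genes, as the 250 bases before the annotated start in GRCm38.p6. The other 10 (Fancd2, H2afx, Nbn, Prkdc, Rad50, Rad9a, Rdm1, Tipin, Usp1 and Wrn) were not in the table. For 25 of the 31 windows the first bases after the start lay in a GENCODE M21 transcript of the gene, and for 6 they did not (Brca2, Mdc1, Msh6, Parp1, Rad17 and Rnf8), 3 of which are among the 8 named next. The check did not ask whether these bases open the transcript, so a window may lie before a later exon. The letters TTTCGCGC, TTTGGCGC, TTCCCGCC and TTTCCCGC, which the cell cycle factors of the E2F family can bind, were searched on both strands, and the third and the fourth can overlap. At least 1 of them lay in 8 of the 31 windows, or 25.8%, against 3.36% of 27025 genes with a window and 6.51% of the 9118 measured ones. The 8 were Brca2, Chek2, Fancm, Mdc1, Rnf168, Rnf8, Topbp1 and Xrcc6, and none of them passed the FDR of 0.05 in any of the 3 tables. By that FDR 15.1% of all genes fell and 16.1% rose at 72 h. The called genes H2afx, Rdm1 and Tipin had no window, so calls cannot be set against these letters for them. The CCAAT box (CCAAT, both strands) lay in 14 of 31 windows (45.2%, against 37.5% of all and 41.04% of measured genes), and TTTGAA, the letters of the cell cycle homology region, in 2 of 31 (6.45%, against 18.3% and 13.0%). The p53 half-site consensus lay in 1 of 31 windows, that of Fanca (3.23%, against 8.20% and 7.24%). Windows are printed for 4 genes that fell at 72 h, and for 2 that hold E2F letters and were not called, so that both kinds can be read. Capitals mark the letters found, and a run in lower case throughout holds none of those searched.
Timeless, chr10:128237816-128238065, + strand: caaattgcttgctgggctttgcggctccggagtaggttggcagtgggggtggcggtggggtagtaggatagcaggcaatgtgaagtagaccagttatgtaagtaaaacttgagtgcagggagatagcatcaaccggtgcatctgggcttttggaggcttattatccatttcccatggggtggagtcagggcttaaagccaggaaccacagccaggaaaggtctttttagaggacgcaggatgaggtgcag
Rad1, chr15:10485768-10486017, + strand: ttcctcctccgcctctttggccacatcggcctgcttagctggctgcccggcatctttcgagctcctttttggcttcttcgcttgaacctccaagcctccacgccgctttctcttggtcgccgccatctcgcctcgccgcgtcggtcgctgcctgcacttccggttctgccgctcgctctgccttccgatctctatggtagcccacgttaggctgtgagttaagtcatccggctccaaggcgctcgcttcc
Fanci, chr7:79392088-79392337, + strand: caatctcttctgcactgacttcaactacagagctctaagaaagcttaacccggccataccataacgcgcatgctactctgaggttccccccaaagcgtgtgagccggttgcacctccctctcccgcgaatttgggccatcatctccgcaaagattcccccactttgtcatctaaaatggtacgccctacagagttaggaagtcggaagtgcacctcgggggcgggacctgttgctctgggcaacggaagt
Xrcc1, chr7:24546449-24546698, + strand: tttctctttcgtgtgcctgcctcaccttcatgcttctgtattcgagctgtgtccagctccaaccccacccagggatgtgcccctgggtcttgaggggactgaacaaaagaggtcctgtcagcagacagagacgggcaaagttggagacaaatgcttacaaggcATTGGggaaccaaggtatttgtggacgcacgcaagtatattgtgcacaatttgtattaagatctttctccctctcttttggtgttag
Chek2, chr5:110839733-110839982, + strand: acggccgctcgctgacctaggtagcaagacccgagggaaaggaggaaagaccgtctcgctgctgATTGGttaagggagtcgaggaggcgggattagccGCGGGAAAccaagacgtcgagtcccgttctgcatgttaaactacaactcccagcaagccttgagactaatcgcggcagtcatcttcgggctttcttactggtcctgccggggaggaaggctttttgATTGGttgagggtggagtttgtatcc
Topbp1, chr9:103305077-103305326, + strand: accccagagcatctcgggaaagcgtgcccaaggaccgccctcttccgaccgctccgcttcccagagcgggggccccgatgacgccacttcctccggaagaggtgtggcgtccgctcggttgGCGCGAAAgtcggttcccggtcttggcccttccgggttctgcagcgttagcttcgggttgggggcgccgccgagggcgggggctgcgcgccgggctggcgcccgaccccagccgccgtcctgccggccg
In the window of Xrcc1 the capitals are a CCAAT box on the minus strand. That of Chek2 holds the E2F letters TTTCCCGC on the minus strand between a pair of CCAAT boxes, and that of Topbp1 holds TTTCGCGC on the minus strand. A match of letters is a description of the window and not a binding site, and no binding was measured here. Rad1 has 2 windows in the table, of which the first is shown.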

How the data were processed

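RNA was measured in 18 samples. The submitters' processing notes name Bowtie, HTSeq, CASAVA 1.8.2, edgeR and the build mm9; their settings and the gene annotation are not given in the sources used here. The TruSeq kit of the labels' protocols does not mark strand, so overlapping genes cannot be separated by it; in GENCODE M21 (GRCm38), 6 of the 41 genes share over 10% of their exon bases with another gene (Atrip, Fanci, Trp53bp1, Rnf8, Fanca and H2afx). The authors deposited raw counts per gene for p53WT AML at 10 h, and for all 3 comparisons a log2 fold change, a log2 mean CPM, a p-value and an FDR, per the file headers. Every row of these tables names an Ensembl gene. Ensembl IDs were paired with symbols for 12237, 12366 and 12362 of 12679, 12861 and 12838 IDs.

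Counts were tested in R 4.3.3 with edgeR 4.0.16 and its quasi-likelihood test (TMM scaling, treatment as the only term, two-sided, 4 residual degrees of freedom, Benjamini-Hochberg over all genes, threshold 0.05; prior count 2 for log2 CPM). The count columns number the libraries from 1 to 3 and the sample titles from 3 to 5, so columns were assigned to groups only. The labels do not say whether samples of a group came from separate mice, so p-values measure the spread between these samples. No pair of libraries agreed within sampling noise (chi-square per degree of freedom 5.69 to 81.3). For the other comparisons the authors' values were used, since a fit needs counts. Positive values mean higher with CX-5461: this was checked on the counts (Pearson r = 1.00 over 12679 genes) and taken to hold for the other tables. Alternatives were limma-voom (limma 3.58.1), DESeq2 1.42.0, other scalings and filters, and leaving out each library. The fit was tested on simulated data.

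The 41 genes, the lists and the rule for named genes were chosen with earlier results of these data known. Named were all genes past the threshold in any comparison, a set of core genes in every comparison, the largest change per role, and up to 6 other repair genes per comparison; the other repair genes that are named beyond this were chosen after their values were seen. Exon lengths are the union of GENCODE M21 exons of each gene, and no mm9 gene coordinates are given. A few genes of the other repair list enter its counts and medians but are not reported here by name or plotted.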

Additional observations from a re-analysis of the deposited data

How the results depend on the processing

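In p53WT AML at 10 h, 1 of the 41 genes rose and none fell. The number that rose was 0 with library totals as the only scaling, 0 with limma-voom, 0 with the erythroid covariate, 0 in the authors' deposited values and 2 with DESeq2 (Atr and Atrip). The number that fell was 2 with DESeq2 (H2afx and Rdm1) and 0 under the other settings, library omissions aside. Leaving out each library in turn gave 0 to 3 genes that rose and 0 to 1 that fell. The 0 came without any one CX-5461 library, when 23 to 25 genes were called in the whole table. The 3 came without vehicle 1 (Atr, Atrip and Parp1), and without vehicle 3 there were 2 (Atr and Fanca), with Rdm1 lower. The calls over all genes were 1027 in the test as reported, 2306 with DESeq2, 1716 with edgeR's exact test, 1678 without vehicle 1 and 24 with the erythroid covariate. The median log2 fold change of 0.08 was 0.12 with library totals, which move the median of all genes to 0.04, and turned to -0.0084 with the erythroid covariate; without single libraries it was 0.05 to 0.11. The cause was not tested. Of 614 values of single genes under the alternatives, none changed sign while called, 7 lost and 7 gained a call, and 38 changed sign without a call under either setting.

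In p53null AML none of the 41 genes passed an FDR of 0.01 (0 against 1). At 72 h, an FDR of 0.01 left 4 of the 7 genes that fell, and an FDR of 0.1 gave 11 lower and 2 higher. The shares of all genes at these limits are not given here, so these counts cannot be set against them. With genes of at least 5 CPM, 0 rose, since Xrcc5 lies below that level. The medians of these comparisons kept their direction under the alternatives tried.

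No paired analysis was possible because the count columns carry other numbers than the sample titles and the other tables hold no values per library.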
